A study of Mus musculus with 4 samples.

Results

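Marker genes of microglia, macrophages and leukocytes were followed in RNA-Seq of cerebral cells sorted as CD31+CD45-. They were 10 in number, chosen by gene symbol, and all 10 were present among the 24873 genes of the table. Cx3cr1, P2ry12 and Tmem119 represented homeostatic microglia, Csf1r, Adgre1, Aif1, Cd68, Mrc1 and Lyz2 represented macrophages, and Ptprc represented all leukocytes. Microglia are macrophages too and depend on CSF1R, so the macrophage genes do not leave microglia out. All mice carried VE-cadherin cre/ERT2 with 2 floxed alleles of Mgp (Mgp fl/fl). The 2 control libraries came from such mice without tamoxifen. For the 2 tamoxifen libraries, injections of 75 mg/kg per day began at 10 weeks of age and went on for 5 days, and cells were taken on day 9. Each library was a pool of cells from 3 mice. The recombinase was driven by the VE-cadherin promoter, which is active in endothelial cells, so the deletion of Mgp was directed at these cells. The study's methods sort on CD31 and CD45, but the labels of the samples name brain cells positive for tdTomato.

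Microglia are the resident macrophages of the brain parenchyma. They depend on signaling through CSF1R, and in the undisturbed brain they carry CX3CR1, P2RY12 and TMEM119. Macrophages that enter from blood largely lack P2RY12 and TMEM119. Macrophages at brain borders carry MRC1, circulating monocytes and granulocytes are rich in lysozyme, and CD45, the product of Ptprc, covers leukocytes in general but is low on microglia. A CD45- gate is meant to leave all of these cells out.

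Libraries held between 35387438 and 49799321 reads on genes. Table columns are named by letter and number, and those lettered C were taken for control and those lettered A, a letter absent from the labels, for tamoxifen. Mgp, the targeted gene, stood at 1094 and 1352 normalized counts in control against 945 and 909 in tamoxifen. Both tamoxifen libraries were lower, but the log2 fold change of -0.39 (limma, adjusted p = 0.0986) did not pass the threshold, so this check of the labels was not decisive. Of 10 endothelial markers, 10 were called lower in the tamoxifen libraries, with Pecam1 (CD31) at 83681 and 88796 normalized counts in control and 15987 and 8973 in tamoxifen. Cdh5 (VE-cadherin) fell from 79151 and 86328 to 15585 and 8508. In bulk RNA, fewer cells of a type and less RNA per cell cannot be told apart, and this holds for every level given here. Normalized counts are read counts divided by 1 factor per library.

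The pan-leukocyte gene and most macrophage genes rose in the tamoxifen libraries, and of the homeostatic microglia genes Tmem119 did. Genes were called at an adjusted p under 0.05 and a log2 fold change over 1 in size, the study's own thresholds, with limma on log2(normalized count + 1). Of the 10 genes, 7 were called higher and 0 were called lower, against 28.6% of all 20485 tested genes called higher, 16.0% called lower and 44.7% called in either direction. All 10 fold changes were above 0, so 0 were lower at an unadjusted p under 0.05 as well, and edgeR and DESeq2 on the recovered reads also called 0 lower. The p-values set the difference between groups against the spread between libraries, which the fit shares in part over all genes. Each library is a pool of 3 mice, so they do not measure the spread between single mice. Both tamoxifen libraries lay above both control libraries for 8 of the 10 genes, against 43.1% of all tested genes. The 7 called genes were Ptprc, Lyz2, Mrc1, Aif1, Adgre1, Cd68 and Tmem119. By group, 1 of 3 homeostatic microglia genes, 5 of 6 macrophage genes and the pan-leukocyte gene were called. Without tamoxifen library 1, or without tamoxifen library 2, the count of called genes was 3, and these were Ptprc, Lyz2 and Mrc1, while 14.8% and 12.5% of all tested genes were called higher there.

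**Figure D1:**
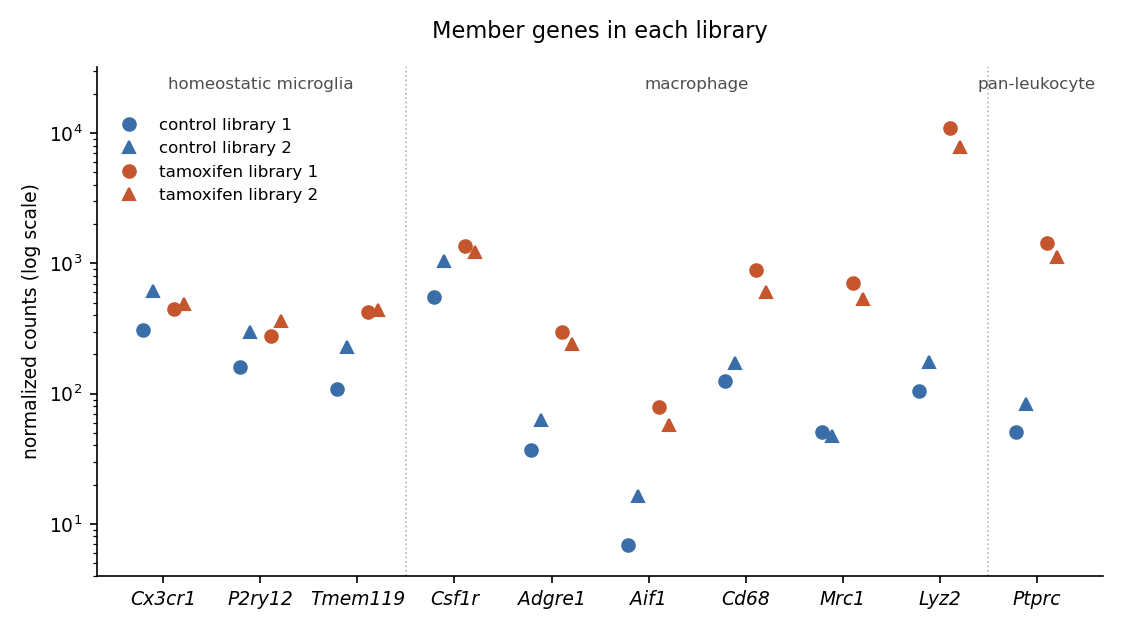
Normalized counts (log scale) of the 10 genes, with control libraries in blue and tamoxifen libraries in orange; circles stand for library 1 and triangles for library 2 of each group. The colors separate by more than a factor of 10 for Ptprc, Lyz2 and Mrc1, and interleave for Cx3cr1 and P2ry12.

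The start regions of these genes are shown because PU.1 (Spi1), the factor on which myeloid genes depend, binds sites such as GAGGAA, which contains the ETS core GGAA. In GRCm39 with GENCODE M39, 300 bases from 250 before to 50 after the start of the canonical transcript were read from the genome for each gene. The letters GAGGAA, on either strand, were found in 6 of the 10 regions and in 27.5% of 21770 such regions of protein-coding genes. The 6 were those of Ptprc, Csf1r, Adgre1, Cd68, Mrc1 and Lyz2, whereas Aif1 and the 3 homeostatic genes had no match. The longer form GAGGAAGT, which contains the shorter one, was found in 0 of the 10 regions and in 3.07% of all. A match is a string of letters and not a measured binding site. Other letters around GGAA were not searched for. Tmem119 and Aif1 were called higher without a match, and Csf1r had a match without being called. The regions of 3 genes that rose with a match and of the 3 homeostatic genes without one are given 5′ to 3′ on the gene's strand, with matches on either strand in capitals. They lie at chr1:138103000-138103299 (minus strand) for Ptprc, chr2:14233901-14234200 (plus strand) for Mrc1 and chr11:69557018-69557317 (minus strand) for Cd68. Those of Cx3cr1, P2ry12 and Tmem119, all on the minus strand, lie at chr9:119897318-119897617, chr3:59170380-59170679 and chr5:113938528-113938827.
Ptprc: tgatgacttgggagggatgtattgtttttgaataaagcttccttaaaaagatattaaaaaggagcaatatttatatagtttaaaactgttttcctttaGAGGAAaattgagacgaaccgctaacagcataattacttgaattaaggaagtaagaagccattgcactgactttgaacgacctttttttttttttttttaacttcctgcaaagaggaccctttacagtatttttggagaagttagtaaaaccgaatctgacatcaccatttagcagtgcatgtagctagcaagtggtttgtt
Mrc1: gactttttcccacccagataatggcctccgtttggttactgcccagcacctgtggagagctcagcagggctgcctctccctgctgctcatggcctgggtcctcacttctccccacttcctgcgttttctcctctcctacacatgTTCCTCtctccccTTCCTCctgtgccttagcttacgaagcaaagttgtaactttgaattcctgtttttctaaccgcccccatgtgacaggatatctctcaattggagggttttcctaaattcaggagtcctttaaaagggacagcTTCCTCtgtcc
Cd68: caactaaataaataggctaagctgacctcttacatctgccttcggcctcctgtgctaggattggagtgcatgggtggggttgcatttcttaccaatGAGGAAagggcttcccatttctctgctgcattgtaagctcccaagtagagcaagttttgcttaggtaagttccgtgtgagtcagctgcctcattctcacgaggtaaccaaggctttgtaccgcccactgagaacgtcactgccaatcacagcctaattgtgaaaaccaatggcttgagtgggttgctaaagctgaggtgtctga
Cx3cr1: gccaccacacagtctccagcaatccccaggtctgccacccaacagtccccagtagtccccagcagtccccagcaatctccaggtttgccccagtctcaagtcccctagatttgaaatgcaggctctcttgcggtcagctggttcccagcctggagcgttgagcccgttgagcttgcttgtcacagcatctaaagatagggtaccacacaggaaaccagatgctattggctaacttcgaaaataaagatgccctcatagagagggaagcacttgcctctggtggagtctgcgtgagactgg
P2ry12: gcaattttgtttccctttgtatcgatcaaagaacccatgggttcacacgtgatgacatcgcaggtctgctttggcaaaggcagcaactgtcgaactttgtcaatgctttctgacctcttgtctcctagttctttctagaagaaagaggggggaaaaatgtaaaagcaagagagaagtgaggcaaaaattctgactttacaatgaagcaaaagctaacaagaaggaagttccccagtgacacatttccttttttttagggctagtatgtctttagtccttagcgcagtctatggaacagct
Tmem119: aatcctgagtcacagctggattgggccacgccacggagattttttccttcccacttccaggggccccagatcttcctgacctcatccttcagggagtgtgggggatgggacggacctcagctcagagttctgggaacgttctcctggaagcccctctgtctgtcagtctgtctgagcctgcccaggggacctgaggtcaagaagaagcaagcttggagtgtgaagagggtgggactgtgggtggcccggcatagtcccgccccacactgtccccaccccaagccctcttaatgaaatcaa
The match of Ptprc began 152 bases before the start and that of Cd68 154 bases before it. Mrc1 had 3 matches, all as the reverse complement, at 106 and 93 bases before the start and at position 40 after it. Annotated exons on the opposite strand overlap P2ry12 over 294 bases (Med12l), Csf1r over 1461 bases (Hmgxb3) and Aif1 over 703 bases (Gm17705). Med12l itself rose from 69.9 and 77.6 to 547 and 1029 normalized counts, whereas Hmgxb3 (-0.14) and Gm17705 (0.24) had log2 fold changes near 0. The library kit keeps strand, but the strand setting of the counting is not given in the sources used here, so reads in these stretches may be misassigned.

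Ptprc (chr1:137990599-138103446) encodes CD45, a phosphatase of leukocytes that the study's methods name as a negative marker of the sort. Its normalized counts were 50.7 and 83.9 in control and 1423 and 1119 in tamoxifen. The groups were far apart, with a mean of 67.3 ± 23.5 (SD, n = 2) against 1271 ± 215 (SD, n = 2), an 18.9-fold ratio. On the log2 scale it rose by 4.25 (standard error 0.33, limma, adjusted p = 4.99e-05), and it was called in all 15 alternatives, with a range from 3.58 to 4.72.

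Lyz2 (chr10:117111557-117118346), the lysozyme gene of granulocytes, monocytes and macrophages, had 104 and 175 normalized counts in control and 10957 and 7827 in tamoxifen. This was the widest separation of the 10 genes, a 67.2-fold ratio of means and a log2 fold change of 6.09 (standard error 0.28, limma, adjusted p = 7.19e-06). Its near-identical neighbor Lyz1 could share reads with it, and had 1 and 0 reads in control and 22 and 17 in tamoxifen, so the split between these copies is uncertain but small beside 10110 and 10887 reads of Lyz2. Mrc1 (chr2:14234151-14336926), the gene of the mannose receptor CD206 of border macrophages, had 50.7 and 47.6 normalized counts in control and 703 and 531 in tamoxifen. The control libraries nearly coincided, and both tamoxifen libraries were more than 10 times as high, with a log2 fold change of 3.61 (standard error 0.33, limma, adjusted p = 9.68e-05). Lyz2 and Mrc1 were also called in 15 of 15 alternatives.

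Cd68 (chr11:69555037-69557067), the gene of a lysosomal membrane protein of phagocytes, had 125 and 171 normalized counts in control and 887 and 603 in tamoxifen. Adgre1 (chr17:57665573-57790527), the gene of the macrophage surface receptor F4/80, had 37.0 and 62.6 in control and 298 and 242 in tamoxifen. Both genes rose, 5.03-fold for Cd68 (log2 fold change 2.31, limma, adjusted p = 4.53e-04) and 5.43-fold for Adgre1 (2.46, limma, adjusted p = 0.00167). Aif1 (chr17:35387384-35395053), the gene of the calcium-binding protein IBA1, was the scarcest, with 5 and 13 reads in control against 73 and 80 in tamoxifen. Its normalized counts were 6.85 and 16.3 against 79.1 and 57.5, with a log2 fold change of 2.56 (standard error 0.62, limma, adjusted p = 0.00869). The groups of these 3 genes did not overlap. Leaving out either tamoxifen library took the adjusted p of each over 0.05 (limma, 0.0501 to 0.124), and for Aif1 so did quantile normalization (limma, adjusted p = 0.0577).

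Csf1r, the receptor for CSF1 and IL34 on microglia and macrophages, had 551 and 1038 normalized counts in control and 1366 and 1226 in tamoxifen. Both tamoxifen libraries were higher, but control library 2 came close to them. Its log2 fold change of 0.77 (95% confidence interval 0.10 to 1.45, limma, adjusted p = 0.0499) was below the size limit. Csf1r passed both limits without control library 2 (1.23) and with libraries rescaled to the same total (1.24), and without control library 1 it was 0.32.

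Among homeostatic microglia genes, Tmem119 (chr5:113931781-113938577), the gene of a surface protein of microglia, had 108 and 227 normalized counts in control and 421 and 440.0 in tamoxifen. It was the only one of the 3 in which the groups did not overlap, with a 2.57-fold ratio of means and a log2 fold change of 1.45 (standard error 0.38, limma, adjusted p = 0.0125). The call was lost in 5 of 15 alternatives, namely quantile normalization (0.37), an untrended fit (limma, adjusted p = 0.0517), and leaving out control library 1 (0.92), tamoxifen library 1 (limma, adjusted p = 0.200) or tamoxifen library 2 (limma, adjusted p = 0.213). P2ry12 (chr3:59123682-59170429), the gene of the ADP receptor of microglial processes, had 159 and 295 in control and 279 and 362 in tamoxifen, with control library 2 above tamoxifen library 1. The log2 fold change of P2ry12 was 0.55 (95% confidence interval -0.29 to 1.39, limma, adjusted p = 0.224), and it turned to -0.55 under quantile normalization. Exons of P2ry12 overlap those of Med12l, which rose, so misassigned reads may enter these values. Cx3cr1 (chr9:119877749-119898945), the gene of the fractalkine receptor, had 307 and 618 in control and 450 and 485 in tamoxifen, so that the control libraries lay on either side of both tamoxifen libraries. The log2 fold change of Cx3cr1 was 0.10 (95% confidence interval -0.68 to 0.88, limma, adjusted p = 0.812), and it was -0.70 under quantile normalization and -0.40 without control library 1. The upper bound for Cx3cr1 lay below the lower bound of each of the 6 genes Ptprc, Lyz2, Mrc1, Cd68, Adgre1 and Aif1, whose lowest bound was 1.12 for Aif1. The other homeostatic genes were not so apart. The upper bound of P2ry12 lay above the lower bound of Aif1. That of Tmem119 (2.34) lay above those of Aif1, Adgre1 (1.48) and Cd68 (1.61). The interval of the macrophage gene Csf1r overlapped that of Cx3cr1. The difference between these genes was not tested.

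**Figure D2:**
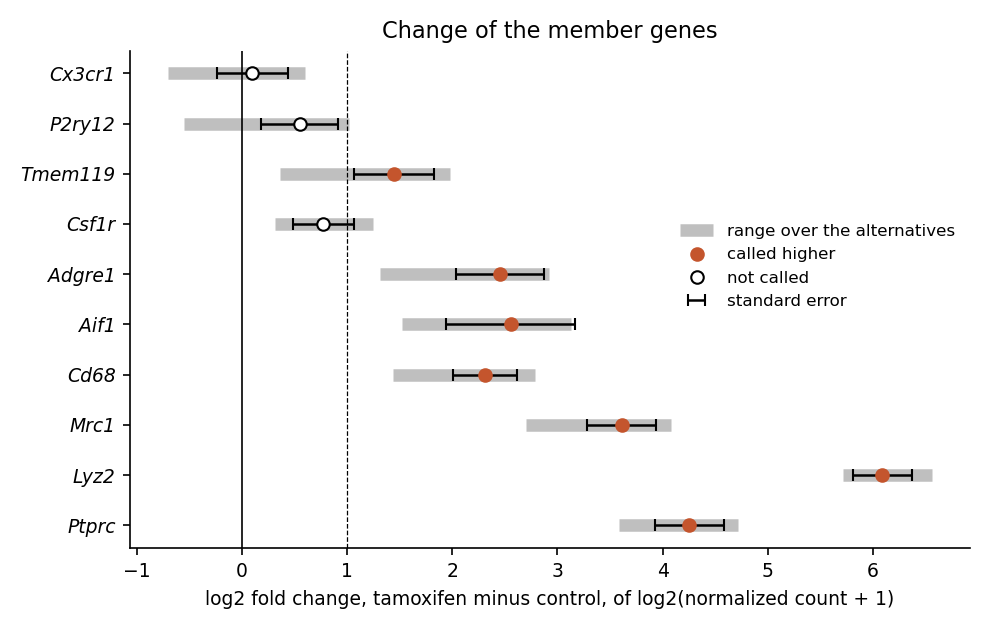
Log2 fold change of each gene (tamoxifen minus control) with its standard error, filled where called; grey bars span the 15 alternatives (14 for Aif1) and the dashed line marks a log2 fold change of 1. The whole grey bars of Lyz2, Ptprc and Mrc1 lie to the right of the dashed line, and the grey bars of Cx3cr1 and P2ry12 cross 0.

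The control libraries were unequal in most of these genes. Control library 2 held 2.02 times as much Cx3cr1 as control library 1, 1.86 times as much P2ry12, 2.09 times as much Tmem119 and 1.88 times as much Csf1r. The ratio was 2.38 for Aif1, 1.69 for Adgre1, 1.68 for Lyz2, 1.65 for Ptprc and 1.38 for Cd68, so the gap was not particular to homeostatic genes, and it was 0.938 for Mrc1. The median log2 difference between the control libraries over all tested genes was 0.05. The tamoxifen libraries differed less in the homeostatic genes, with ratios of library 2 to library 1 from 1.05 for Tmem119 to 1.30 for P2ry12. For Ptprc and the 6 macrophage genes tamoxifen library 2 was the lower one, with ratios from 0.680 for Cd68 to 0.898 for Csf1r. The median log2 fold change of the homeostatic genes was 0.10 without control library 1 and 1.00 without control library 2.

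A comparison within each library is untouched by a factor applied to the whole library. The mean log2 value of the 3 homeostatic genes minus that of Ptprc and the 6 macrophage genes was 1.40 and 1.72 in control, and -1.18 and -0.61 in tamoxifen. Only the shift between libraries is read from these values, since gene length enters each of them alike, and it was -2.45 on the log2 scale. As the macrophage genes do not leave microglia out, the shift does not set microglia against other macrophages. Over the alternatives the shift ranged from -2.73 to -2.17. With Lyz2 left out, the values were 1.51 and 1.85 in control and -0.56 and -0.0085 in tamoxifen, so tamoxifen library 2 came close to 0. In reads, Csf1r had 10.9 and 12.4 reads for each read of Ptprc in control and 0.960 and 1.10 in tamoxifen. Both genes of that ratio are on the macrophage and pan-leukocyte side, so it shows that this side did not move as 1. P2ry12 had 3.14 and 6.21 reads for each read of Mrc1 in control and 0.396 and 0.682 in tamoxifen, and the groups did not overlap in either ratio. The reads of P2ry12 are subject to its overlap with Med12l given above. Tmem119 per read of Cd68 was closer, at 0.868 and 1.32 in control and 0.474 and 0.729 in tamoxifen. An exact permutation test (two-sided) over 4 libraries reaches at best p = 0.333, so none was made on these ratios.

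Per kilobase of the canonical transcript, Csf1r (131 normalized counts per kb), Cd68 (124) and Cx3cr1 (123) led in the control libraries. P2ry12 (94.9), Tmem119 (74.4) and Lyz2 (46.6) followed, and the library ranges of neighbors overlapped throughout these 6. Adgre1 (14.8) and Ptprc (13.1) also overlapped, with Mrc1 (8.96) and Aif1 (3.38) lowest. Under tamoxifen the order was Lyz2 (3136 per kb), Cd68 (622), Ptprc (248), Csf1r (214), Tmem119 (191), P2ry12 (134), Cx3cr1 (124), Mrc1 (113), Adgre1 (80.5) and Aif1 (19.9). Here Ptprc and Csf1r overlapped, as did P2ry12 with Cx3cr1 and Cx3cr1 with Mrc1. The homeostatic genes made up 42.8% and 48.0% of the summed level per kb of the 10 genes in control and 7.60% and 11.3% in tamoxifen. Lyz2 alone took 65.7% and 62.2% of that sum in tamoxifen. With Lyz2 left out, the homeostatic share was still 46.3% and 51.7% in control against 22.2% and 30.0% in tamoxifen. All 10 genes together made up 29.2 and 53.3 CPM of the reads on genes in control, and 439.6 and 360.1 CPM in tamoxifen.

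**Figure D3:**
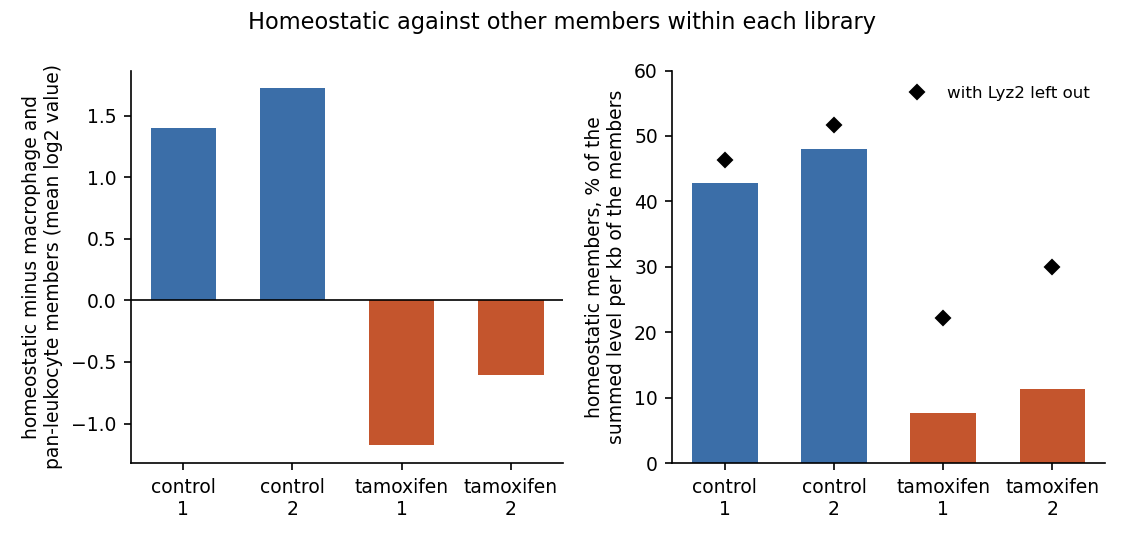
Left, mean log2 value of the homeostatic microglia genes minus that of the macrophage genes and Ptprc in each library; right, share of the homeostatic genes in the summed level per kb of all 10 genes (bars, %), and with Lyz2 left out (diamonds). Both control libraries are above 0 on the left and both tamoxifen libraries below it, and the bars of the tamoxifen libraries are at 11.3% or less. With Lyz2 left out of the left measure, which is not drawn, tamoxifen library 2 was at -0.0085.

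Further genes of the same cells were counted next. The counts of each list are to be read beside all tested genes, of which 28.6% were called higher, 16.0% lower and 44.7% in either direction. Of 11 tested homeostatic microglia genes outside the 10, 5 were called higher, 1 lower and 5 in neither direction, with a median log2 fold change of 1.60 against 0.05 for all tested genes. Among those not called, Gpr34 and Crybb1 had overlapping groups. Both genes and Selplg, below, were named after their values had been seen. Sall1, a factor of microglial identity that is also active in other developing tissues, stood apart with 167 and 272 normalized counts in control and 5478 and 5492 in tamoxifen (log2 fold change 4.68, limma, adjusted p = 1.04e-05). Selplg, a selectin ligand of microglia and of leukocytes in general, had a log2 fold change of 2.33. Sparc, a matrix protein gene that endothelial cells share, was called lower (-1.46, limma, adjusted p = 0.0168). Of these 11 genes, 10 were higher in control library 2 than in control library 1, and the median of the list ranged from 0.55 under quantile normalization to 2.05 with equal totals. Without tamoxifen library 1, or without tamoxifen library 2, 1 of the 11 was called, and without control library 1 the count was 4.

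Of 12 complement and phagocyte genes, 9 were called higher and 3 were not, with a median of 1.53. The median was 1.06 without control library 1, 2.16 without control library 2 and 0.73 after quantile normalization. C1qa, a complement subunit gene of microglia and tissue macrophages, had a log2 fold change of 1.41, near that of Tmem119, and it was named after its value had been seen. Tyrobp, the adaptor of TREM2 and of other receptors on all myeloid cells, had 52.0 and 56.3 normalized counts in control and 1350 and 971 in tamoxifen (log2 fold change 4.38, limma, adjusted p = 3.11e-05). Mertk, a receptor for dying cells that astrocytes also express, had 4802 and 4408 in control and 4163 and 7154 in tamoxifen. Under quantile normalization 4 of the 12 were called, and 6, 2 and 3 without control library 1, tamoxifen library 1 and tamoxifen library 2.

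Of 11 tested border macrophage genes, 6 were called higher and 2 lower, with a median of 3.07, or 2.75 when 2 genes with at most 3 reads in each control library were set to their lower bound. The median was 0.78 with the filter at a mean of 100 and 2.02 after quantile normalization. Siglec1, a sialic acid receptor of macrophages, was at 0 and 8.76 in control and 140 and 105 in tamoxifen. Siglec1 and the 2 genes set to their lower bound averaged under 10 in control. They were tested only through their tamoxifen values, so their calls higher are not independent support. Stab1, a scavenger receptor that endothelial cells express too, fell by 2.62 on the log2 scale. The number called in either direction, 8 with all libraries, was 1 without tamoxifen library 1 and 2 without tamoxifen library 2. Of 15 further pan-leukocyte genes, 13 were called higher and 0 lower, with a median of 4.59, which quantile normalization took to 3.79. A few of the 13 averaged under 10 in control and were likewise tested only through their tamoxifen values. Rac2, a GTPase of blood cells, rose 129-fold, whereas Lcp1 (1.48-fold, with 4169 and 4169 normalized counts in control) and Cyth4 were not called.

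Of 12 monocyte genes, 11 were called higher, with a median of 5.64, and Itga4, the most abundant of them, was lower without a call (-0.95). The median was 4.81 without control library 1, 6.42 without control library 2 and 4.29 after quantile normalization. Fcnb, a ficolin of bone marrow myeloid cells, had 1 and 0 reads in control and was at least 120.2-fold higher, taking 3 reads in each control library as the floor. Fcnb and several other genes of this list averaged under 10 in control. They were tested only through their tamoxifen values, so their calls higher are not independent support. Cd44 of this list, named after its value had been seen, is also a mesenchymal marker shown in the study's heatmap, so its direction is not independent evidence. Of 12 myeloid transcription factor genes, 7 were called higher and 3 lower, with a median of 2.71, which quantile normalization took to 1.65. Spi1, the gene of PU.1, had 13.7 and 32.5 normalized counts in control and 965 and 579 in tamoxifen, and was named after its value had been seen. Cebpe, a granulocyte factor, had 0 reads in both control libraries and was at least 74.6-fold higher. Cebpe and others of these factors averaged under 10 in control and were likewise tested only through their tamoxifen values. Klf4, which endothelial cells also express, fell by 1.49 on the log2 scale. The number of factors called in either direction, 10 with all libraries, was 6 without tamoxifen library 1 and 4 without tamoxifen library 2.

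Markers of other blood cells moved with these genes. Of 12 neutrophil and granulocyte precursor genes, 12 were called higher, and their summed level went from 321 and 274 normalized counts in control to 117573 and 87539.5 in tamoxifen. None of the 12 was at 0 in both control libraries, and 2 had at most 3 reads in each. Mpo, the peroxidase of granulocyte precursors, had 4.11 and 8.76 in control and 5602 and 3969 in tamoxifen. S100a9 (84.9 and 80.1 against 35787 and 28642) is part of the study's heatmap and is not independent evidence. Of 6 tested B cell and T cell genes 6 were called higher, led by Cd79b with 67.4-fold, and the list summed to 69.9 and 103 in control and 2698 and 1959 in tamoxifen. Some genes of these lists, such as Mpo and Cd3e, averaged under 10 in control and were tested only through their tamoxifen values. Of 6 erythroid genes 6 were called higher, with a list sum of 17516 and 35285 in control and 159164 and 101972 in tamoxifen. Without tamoxifen library 1, and likewise without tamoxifen library 2, 11 of the 12 neutrophil genes, 4 of the 6 B cell and T cell genes and 2 of the 6 erythroid genes were called. Granulocytes and monocytes express Ptprc and Lyz2, and the part of these cells in the values of both genes was not tested.

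**Figure D4:**
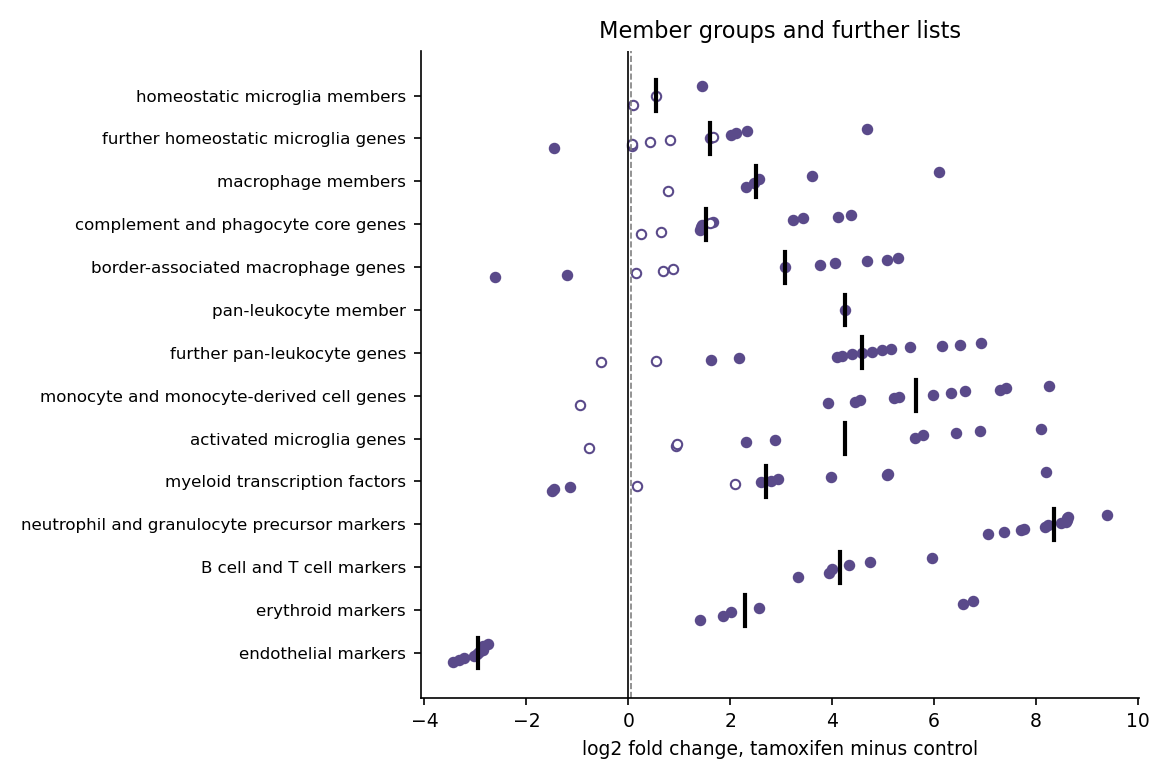
Log2 fold change of each tested gene in the groups of the 10 genes and in further lists, filled where called, with the median of each list as a black bar and the median of all tested genes (0.05) as a dashed line. The bars run from -2.94 for endothelial markers over 0.55 for the homeostatic genes Cx3cr1, P2ry12 and Tmem119 to 8.36 for neutrophil and granulocyte precursor genes.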

How the data were processed

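RNA of 4 libraries was compared, 2 control and 2 tamoxifen. Per the labels and the study's methods, alignment to GRCm39 used STAR 2.7.10a, reads were counted in the same step, genes with few reads were dropped, and the authors normalized with DESeq2 1.36.0. What the authors deposited is thus a signal per gene, a read count over 1 factor per library. Dividing each column by what 1 read is worth there gave whole reads for 100% of values, within 0.01 of a read. Annotation release, strand setting and the limit for few reads are not given in the sources used here. Columns A1 and A2 were taken for tamoxifen from their letter and number alone.

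Genes averaging 10 or more normalized counts were compared with limma 3.58.1 (R 4.3.3, lmFit and trended eBayes) on log2(normalized count + 1), a scale that understates changes of scarce genes. A gene averaging under 10 in control was tested only if its tamoxifen values were higher, so its call higher is not independent support. P-values were adjusted by Benjamini-Hochberg over all genes tested. Other settings tried were a pseudocount of 0.5 or 5, a filter of 100 or none, equal library totals, quantile normalization, an untrended fit, blocking on replicate number, recovered reads in edgeR 4.0.16 or DESeq2 1.42.0, omission of any 1 library, and calls by adjusted p without a size limit. GENCODE M39 held 24451 of the 24873 symbols. Besides the 10 genes, those named are the most abundant, most raised and most lowered gene of each list, Mgp, Pecam1, Cdh5, Lyz1 and genes overlapping a member's exons, with exceptions stated. The 10 genes, the lists and the tests were chosen with earlier results of these data known. A floor of 3 reads covers counting error only.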

Additional observations from a re-analysis of the deposited data

How the results depend on the processing

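Ptprc, Lyz2 and Mrc1 kept their direction and their calls in all 15 alternatives. Quantile normalization turned the median log2 fold change of the homeostatic microglia genes to -0.55, with Cx3cr1 at -0.70 and P2ry12 at -0.55. It shifted the median of all tested genes from 0.05 to -0.23, and equal totals shifted it to 0.52. Without a library, Cx3cr1 ranged from -0.40 (without control library 1) to 0.60, the homeostatic median from 0.10 to 1.00, and the macrophage median, 2.51 with all libraries, from 2.09 to 2.98. The macrophage median was 2.96 with equal totals and 1.48 after quantile normalization. The members called, 7 of 10, ranged from 3 to 8 without a library, with 3 without tamoxifen library 1 or without tamoxifen library 2, where the lone one is assumed to vary like the control libraries. Over all genes, 9151 were called (5867 higher, 3284 lower). The filter at a mean of 100 gave 5934 (3540.0 higher) because fewer genes were tested. Equal totals gave 7206 higher and 1838 lower, quantile normalization 4615 and 5509, and the adjusted p alone 5228 lower. Without a library the calls ranged from 4147 to 9700.0, with 2553 to 6163 higher and 1594 to 3537 lower. edgeR called 9241 and DESeq2 8739.

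The libraries share only a replicate number. Deviations of same-numbered libraries correlated with r = 0.025 over 20485 genes, and the replicate block gave 9525 called genes with 7 of the 10 members. Among the further lists, the number of called border macrophage genes went from 8 to 4 with the filter at 100, where fewer genes were tested, that of B cell and T cell genes from 6 to 3 and that of mast cell and basophil genes from 3 to 0. After quantile normalization the number of further homeostatic genes called went from 6 to 3 and that of complement and phagocyte genes from 9 to 4. The cause of the moves under quantile normalization was not tested. Aif1, with 5 and 13 control reads, falls below the filter at 100 and has no value there, and its few reads limit its precision.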

Other observations

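Genes of activated microglia and lipid-laden macrophages were measured as well. Over all tested genes, 28.6% were called higher and 16.0% lower. Of 10 tested, 7 were called higher and 0 lower, with a median log2 fold change of 4.25, or 3.70 with 3 genes that had at most 3 reads in each control library set to their lower bound. Some of the 7, among them these 3, averaged under 10 in control and were tested only through their tamoxifen values. Their calls are not independent support. The median was 2.59 without a filter and also with the filter at a mean of 100, and 3.58 without control library 1. Spp1, the gene of osteopontin, had 127 and 120.2 normalized counts in control and 37818 and 31141 in tamoxifen (log2 fold change 8.10, limma, adjusted p = 8.09e-07). Bone-forming and other mesenchymal cells express Spp1 too. Apoe, abundant in astrocytes and in activated microglia, had 21983 and 33175 in control and 41746 and 63667 in tamoxifen, without a call (0.93). Ccl4, named after its value had been seen, had at most 1 read in any library and was not tested.

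Of 3 ligands of the receptors among the 10 genes, 1 was called lower and 0 higher (limma), and 0 were higher at an unadjusted p under 0.05. Cx3cl1, the fractalkine that binds CX3CR1, fell from 6367 and 8989 to 2047 and 1358 normalized counts (log2 fold change -2.18, limma, adjusted p = 2.16e-04). Csf1 had 5724 and 7079 in control and 4038 and 3401 in tamoxifen (-0.78, below the size limit). Il34 had 238 and 569 in control and 532 and 589 in tamoxifen (0.60, limma, adjusted p = 0.214), with overlapping groups. Of the mast cell and basophil genes, 3 were in the table and 3 were called higher, all with at most 3 reads in each control library, and Prss34 was at least 34.7-fold higher. They were tested only because their tamoxifen values passed the filter, so these calls are not independent support. Without tamoxifen library 1, or without tamoxifen library 2, 4 of the 10 activated microglia genes and 2 of the 3 mast cell and basophil genes were called, and Cx3cl1 lost its call without tamoxifen library 2.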
